A study of Mus musculus with 4 samples.

Results

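Cathepsins are the proteases of endosomes and lysosomes. Most are cysteine proteases of the papain family, while Ctsd and Ctse encode aspartic proteases and Ctsa a serine carboxypeptidase. They are made as inactive precursors, sorted to the lysosome and activated there at low pH, where they degrade proteins, trim the invariant chain of MHC class II and, in the case of cathepsin C, activate the granzymes of cytotoxic granules. Cystatins and other small inhibitors hold the cysteine cathepsins in check outside the lysosome. The 10 cathepsin genes described here (Ctsa, Ctsb, Ctsc, Ctsd, Ctse, Ctsh, Ctsl, Ctss, Ctsw and Ctsz) were taken by name from the 23990 gene symbols of the deposited tables, after the values of all transcripts of a symbol had been summed. All 10 were among the 10634 genes tested, whose mean reached 1 FPKM in CNS, dLN or both, although Ctsh reached that level only in CNS.

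The cells were CD44+ CD4 effector cells of wild type C57BL/6 mice (C57BL/6J in the study's methods) with experimental autoimmune encephalomyelitis (EAE), a model of multiple sclerosis that immunization with a myelin peptide (MOG) induces. At disease onset they were purified by flow sorting from 2 sites, the spinal cords (CNS) and the draining lymph nodes (dLN), whose cells had been pooled. There were 2 libraries from CNS and 2 from dLN. According to the study's methods, cells were treated with PMA and ionomycin after sorting, whereas the sample labels describe RNA taken from freshly sorted cells and name no stimulation. All values are FPKM, the fragments scaled by transcript length and by the mapped fragments of the library, so that levels of different genes can be compared per length.

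Depth, which the smallest FPKM values give because they are multiples of 1 fragment, was 18.55 M to 21.9 M fragments per library. Nothing in the labels says whether the 2 libraries of a tissue came from separate mice, and p-values therefore measure the spread between these libraries, which may be technical. All 12 T cell markers were read in every library, the lowest being Cd4 at 66.7 FPKM in dLN replicate 2. They were not level between tissues, since 6 were higher in CNS, namely Cd4 (6.94-fold), Cd3g (7.15-fold), Thy1 (4.34-fold), Cd3e (3.71-fold), Cd3d (3.54-fold) and Lck (3.01-fold), 4 were lower (Cd247, Cd44, Cd5 and Zap70) and 2 did not pass the test used for all genes. CNS replicate 2 stood apart by markers of other cells. Summed over 17 macrophage and microglia markers it held 207 FPKM, against 27.9 in CNS replicate 1 and 4.13 and 3.66 in the dLN libraries, and summed over 9 neutrophil markers 219 FPKM, against 1.04, 0.0606 and 0.0686. Of these, 10 of the 17 and 7 of the 9 were listed at 0 in both dLN libraries. Sex-linked transcripts split with tissue as well. Y-linked Ddx3y had 12.7 and 11.2 FPKM in CNS and was listed at 0 in dLN, whereas Xist had 26.6 and 22.3 FPKM in dLN but no more than 0.0026 FPKM in CNS. Tissue, sex-linked transcripts and the deposited table cannot be told apart. Whether stimulation was alike in both tissues is not settled, and a difference in it could not be told apart from tissue. In bulk RNA, a larger share of cells with a transcript and more transcript per cell cannot be told apart either.

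Cathepsin transcripts were more abundant in CNS than in dLN effector CD4 cells. Their summed level was 1222 and 1276 FPKM in the CNS libraries and 284 and 259 FPKM in the dLN libraries, a 4.60-fold difference between the means, and 3.10-fold without Ctsw. The summed T cell markers were at 4865 and 4988 FPKM in CNS and 2730.1 and 2618 FPKM in dLN. The difference was not shared by the whole family. Of the 10 genes, 6 were higher in CNS (Ctsa, Ctsb, Ctsd, Ctse, Ctss and Ctsw), Ctsz was lower, and Ctsc, Ctsh and Ctsl did not pass the threshold (limma on log2(FPKM + 1), Benjamini-Hochberg adjusted p under 0.05 over all genes tested). A total of 7 of 10 called lies near the background, since 74.9% of all genes tested were called. Calls toward CNS made up 37.8% of all genes tested and calls toward dLN 37.2%. The 6 higher cathepsins also had a log2 ratio of at least 1, against 39.2% of all genes tested in either direction and 21.0% toward CNS. The median log2 ratio of CNS over dLN was 2.31 over the cathepsins and 0.05 over all genes tested. In 9 of the 10 cathepsins both libraries of one tissue lay beyond both of the other, but this held for 89.4% of all genes tested. With 2 libraries in each tissue the smallest two-sided p of an exact permutation test is 0.333.

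**Figure D1:**
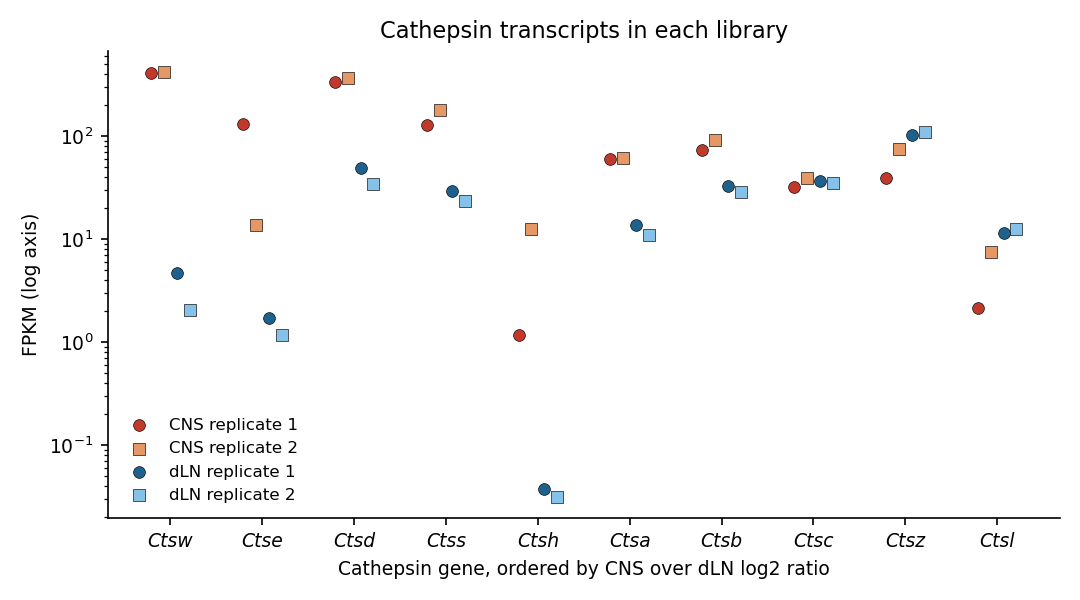
FPKM (log axis) of each cathepsin gene in CNS replicates 1 and 2 and dLN replicates 1 and 2, 1 point per library, with genes ordered by their log2 ratio. Ctsw is at 416 and 423 FPKM in CNS and at most 4.65 FPKM in dLN, the 4 libraries coincide for Ctsc, and the CNS replicates lie far apart for Ctse and Ctsh.

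Ctsw encodes cathepsin W (lymphopain), a papain-family protein known from cytotoxic lymphocytes. It lies on chromosome 19 from 5465240 to 5468498 (mm10, minus strand) and is read as a single RefSeq transcript of 1232 bases. Its level was 416 and 423 FPKM in CNS replicates 1 and 2, and 4.65 and 2.03 FPKM in dLN replicates 1 and 2. The CNS libraries nearly coincided, the dLN libraries differed 2.29-fold from each other, and the lower CNS value was 89.4 times the higher dLN value. The log2 ratio was 6.67 (standard error, SE, of 0.30, limma adjusted p = 9.93e-05), rank 7 of all 10634 genes from the highest down. An estimated 18780 fragments in CNS and 137 in dLN stood behind these values. NK and CD8 T cells are both known to express Ctsw. Genes marking them summed to 8.93 and 13.5 FPKM in CNS and 3.69 and 3.58 FPKM in dLN. Cd8b1 made up most of the dLN sums (3.38 FPKM in each library) and had 3.66 and 4.56 FPKM in CNS. Klrb1c had 2.53 and 3.22 FPKM in CNS against 0.0442 and 0 FPKM in dLN. Eomes, named after its values were seen, had 2.51 and 2.53 FPKM in CNS against 0.183 and 0.180 FPKM in dLN. The study cites human work in which CD4 cells of multiple sclerosis brain expressed Eomes, so Eomes does not mark NK and CD8 T cells alone. The rest of the list, named after the values were seen, was low. Cd8a had 0.130 and 0.834 FPKM in CNS against 0.0370 and 0.0154 FPKM in dLN. In CNS replicate 1, Ncr1, Klra1, Klra4 and Klra7 were listed at 0 and Klra8 had 0.0997 FPKM. In CNS replicate 2, the highest of these was Klra7 at 1.06 FPKM. The part of NK and CD8 T cells in the Ctsw level was not tested. Ctsw was the most abundant cathepsin in CNS and the eighth in dLN, and of the 10 genes it had the largest ratio on the log2(FPKM + 1) scale, though not in FPKM, where that of Ctsh was larger. Among 6401 other genes that reached a mean of 10 FPKM in CNS or dLN, AA467197, Plac8 and Epsti1 had the most similar levels over the 4 libraries (Euclidean distances of 1.16, 1.16 and 1.35 on the log2 scale).

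The aspartic proteases Ctsd and Ctse were both higher in CNS, with very different agreement between replicates. Ctsd encodes cathepsin D, a main endopeptidase of lysosomes, and lies on chromosome 7 from 142375916 to 142387870 (mm10, minus strand), where Gm49369 overlaps it by 6752 bases on the same strand. Its level was 337 and 369 FPKM in CNS and 48.9 and 34.6 FPKM in dLN, with no overlap (log2 ratio 3.07, standard error 0.18, limma adjusted p = 0.000168). Ctse encodes cathepsin E, an endosomal relative found in immune and epithelial cells, and lies on chromosome 1 from 131638314 to 131675507 (mm10, plus strand). It was at 133 FPKM in CNS replicate 1 but at 13.7 FPKM in CNS replicate 2, and at 1.73 and 1.17 FPKM in dLN. Both CNS values were above both dLN values, by 92.0-fold and 9.43-fold over the dLN mean. The log2 ratio was 4.19 with a standard error of 1.04 (limma adjusted p = 0.0167). Without CNS replicate 1 it was 2.59 and without CNS replicate 2 it was 5.79. The call was lost without dLN replicate 1 (4.36) or dLN replicate 2 (4.02), and with no FPKM minimum (limma adjusted p = 0.0605). Such a gap between the CNS replicates was rare in this direction. Of 5320 genes with a CNS mean of at least 10 FPKM, 3 were at least 5-fold higher in replicate 1 on the FPKM + 1 scale (Scarna8, Serpinb1a and Ctse), against 27 in replicate 2, a count made after the values of Ctse had been seen. Serpinb1a, a serine protease inhibitor, was at 65.9 and 3.45 FPKM in the same 2 libraries. In dLN replicates 1 and 2 Serpinb1a was at 8.73 and 0.209 FPKM, so that its replicates differed in dLN too.

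Ctss and Ctsb, cysteine proteases of antigen-processing and degradative compartments, were higher in CNS as well. Ctss encodes cathepsin S, which trims the invariant chain in antigen-presenting cells, and lies on chromosome 3 from 95526786 to 95556405 (mm10, plus strand). Its values were 129 and 182 FPKM in CNS and 29.4 and 23.7 FPKM in dLN (log2 ratio 2.49, standard error 0.20, limma adjusted p = 0.000394). Of its 2 transcripts, which differ by 3 bases in length so that their shares are uncertain, 1 carried 90.5% to 96.3% of the FPKM. Ctsb encodes cathepsin B, which cleaves both within proteins and at their ends, and lies on chromosome 14 from 63122462 to 63145923 (mm10, plus strand). It was at 73.2 and 91.3 FPKM in CNS and at 33.3 and 28.8 FPKM in dLN, the smallest of the 6 rises (log2 ratio 1.37, standard error 0.14, limma adjusted p = 0.000836). Fdft1, at 10.8 to 15.9 FPKM, overlaps it by 774 bases on the other strand, and the library kit does not mark strand.

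Ctsa encodes cathepsin A (protective protein), a serine carboxypeptidase that shields the lysosomal enzymes neuraminidase 1 and beta-galactosidase in a complex. It lies on chromosome 2 from 164832872 to 164841032 (mm10, plus strand) and overlaps Pltp, which had 7.004 FPKM or less in each library, on the other strand by 1515 bases. Ctsa was at 60.7 and 61.9 FPKM in CNS and at 13.8 and 10.9 FPKM in dLN, with tight replicates in both tissues. The log2 ratio was 2.23 (SE 0.13, limma adjusted p = 0.000168). Its transcript from the downstream start held at least 99.0% of the FPKM in each library. For the partners in the complex, named here after their values were seen, Neu1 had a log2 ratio of 0.05 and Glb1 one of 0.15, neither past the threshold (limma adjusted p = 0.710 and 0.282).

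Promoter windows of 300 bases (250 before and 50 after a transcript start, RefSeq, GRCm38.p6) were at hand for 6 of the 10 genes, with 7 windows in all. They were searched on both strands for the E-box CACGTG, the core of the element through which TFEB and its relatives act on lysosomal genes, and for TCACGTG (with its reverse complement CACGTGA), which contains it. CACGTG stood in 1 window each of Ctsa, Ctsd and Ctsl, against 7.15% of all 32851 windows. TCACGTG stood in those of Ctsa and Ctsd, against 3.77% of all windows. The palindrome of 10 bases with GT before and AC after CACGTG, also searched, stood in 0 of the 7 windows, against 0.326% of all windows. The 3 stretches shown are those of the windows with CACGTG. Ctsa and Ctsd rose in CNS, while Ctsl had a ratio in the other direction. The windows of Ctss, which also rose, and of Ctsc and Ctsz held no CACGTG. No window was at hand for Ctsb, Ctse and Ctsw, which rose, or for Ctsh. Capitals mark CACGTG, and each stretch is read 5′ to 3′ along its gene.
Ctsa, chr2:164833714-164833822 (plus strand), E-boxes beginning 12 bases before and 5 bases after the start: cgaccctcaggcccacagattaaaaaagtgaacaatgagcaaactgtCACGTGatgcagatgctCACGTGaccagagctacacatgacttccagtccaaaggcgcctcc
Ctsd, chr7:142387878-142388077 (minus strand), E-boxes beginning 245 and 98 bases before the start: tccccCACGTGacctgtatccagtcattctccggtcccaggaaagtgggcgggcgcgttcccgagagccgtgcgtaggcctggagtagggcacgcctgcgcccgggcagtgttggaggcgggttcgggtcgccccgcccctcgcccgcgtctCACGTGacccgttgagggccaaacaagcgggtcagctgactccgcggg
Ctsl, chr13:64370671-64370770 (minus strand), E-box beginning 236 bases before the start: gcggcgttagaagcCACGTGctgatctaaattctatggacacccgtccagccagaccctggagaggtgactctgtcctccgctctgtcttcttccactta
The start used for these windows is that of the expressed transcript for Ctsa and lies 43 bases from the deposited transcript start for Ctsd and 214 bases from it for Ctsl. A match is a description of the letters and not of binding.

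Ctsc, Ctsh and Ctsz encode cysteine proteases that, like the carboxypeptidase of Ctsa, remove residues from the ends of proteins. Ctsc encodes cathepsin C (dipeptidyl peptidase 1), which activates granzymes, and lies on chromosome 7 from 88278093 to 88310875 (mm10, plus strand). It was at 32.1 and 39.5 FPKM in CNS and at 36.9 and 35.2 FPKM in dLN, so that both dLN values lay between the CNS values (log2 ratio -0.02, standard error 0.12, limma adjusted p = 0.911). Its sign turned to 0.12 when libraries were scaled to the same upper quartile, without a call. Ctsz encodes cathepsin Z, a carboxypeptidase, and lies on chromosome 2 from 174427494 to 174438992 (mm10, minus strand). It was the most abundant cathepsin of dLN cells, at 103.8 and 109.6 FPKM, and was at 39.1 and 75.1 FPKM in CNS. Both CNS values lay below both dLN values (log2 ratio -0.96, standard error 0.31, limma adjusted p = 0.0383), but the call was lost without dLN replicate 1 (adjusted p = 0.111) or dLN replicate 2 (adjusted p = 0.119).

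Ctsh encodes cathepsin H, an aminopeptidase, and lies on chromosome 9 from 90054267 to 90076095 (mm10, plus strand). It was at 1.17 FPKM in CNS replicate 1, at 12.7 FPKM in CNS replicate 2 and at 0.0376 and 0.0315 FPKM in dLN, which is about 1 fragment in each dLN library. The estimated 426 CNS and 2 dLN fragments give a ratio of 202 with a 95% exact counting interval from 55.6 to 1674, which covers counting error only. With a log2 ratio of 2.40 and a standard error of 0.87, Ctsh missed the threshold (limma adjusted p = 0.0548), although both CNS values were above both dLN values. It passed without CNS replicate 1 (log2 ratio 3.72, adjusted p = 0.00500) and without CNS replicate 2 (log2 ratio 1.07, adjusted p = 0.00353), where the lone CNS library is assumed to vary like the dLN libraries. Its call also depended on the pseudocount, with a log2 ratio of 4.90 (adjusted p = 0.0115) at 0.1 in place of 1. Ctsh passed narrowly with libraries scaled to the same sum (limma adjusted p = 0.0489) or the same upper quartile (0.0454). The same held at an FPKM minimum of 5 (0.0481), but not with no minimum (0.137).

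Ctsl encodes cathepsin L, a broad endopeptidase, and lies on chromosome 13 from 64363214 to 64370306 (mm10, minus strand). Its level was 2.13 and 7.52 FPKM in CNS and 11.6 and 12.5 FPKM in dLN. Both CNS values were below both dLN values, and the CNS values differed 3.53-fold. The log2 ratio of -1.33 (standard error 0.48) missed the threshold at a limma adjusted p of 0.0528. Ctsl passed with libraries scaled to the same sum (limma adjusted p = 0.0272) and at an FPKM minimum of 5 (0.0424). At the same upper quartile (0.0595) and with no FPKM minimum (0.133) Ctsl missed it again. It passed without CNS replicate 2 (log2 ratio -2.06, adjusted p = 0.00306) and without CNS replicate 1 (-0.61, adjusted p = 0.0293), on the same assumption as for Ctsh.

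**Figure D2:**
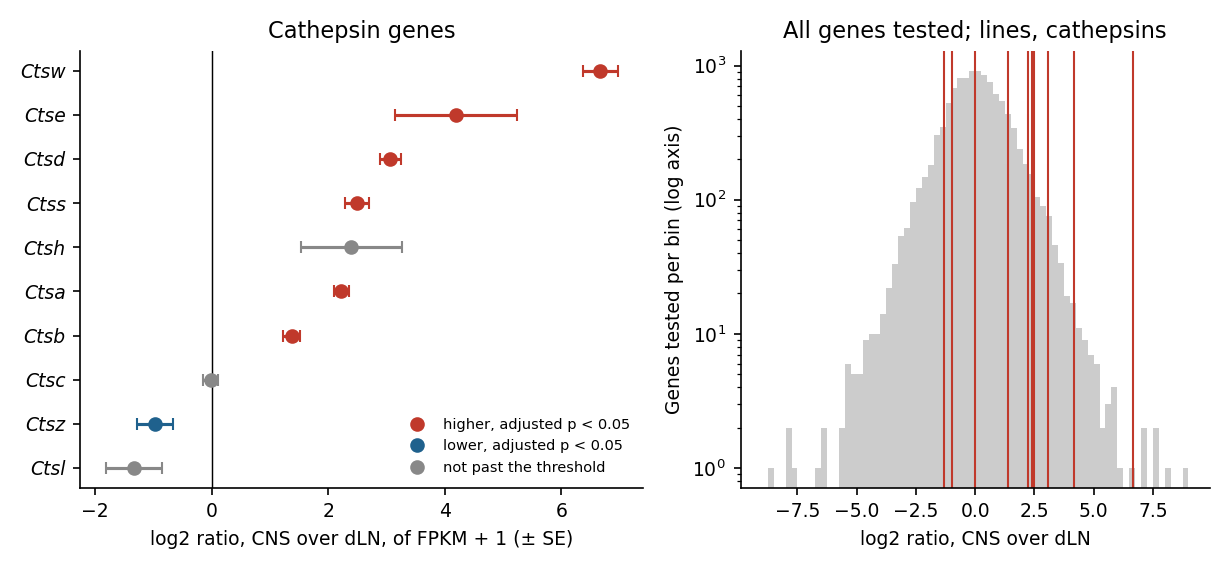
Left, log2 ratio of CNS over dLN on FPKM + 1 with its standard error for each cathepsin, coloured by the limma call. Right, the log2 ratios of all 10634 genes tested (log axis of counts) with the cathepsins as lines. The ratios run from -1.33 for Ctsl to 6.67 for Ctsw, and the wide standard errors of Ctse and Ctsh follow the distance between their CNS replicates.

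In CNS the order of mean levels began with Ctsw, Ctsd and Ctss, each separated from the next by both libraries. Ctsb, Ctse, Ctsa, Ctsz and Ctsc followed, where each overlapped the next, and then Ctsh and Ctsl, which overlapped each other. In dLN Ctsz came first, followed by Ctsd and Ctsc, which overlapped, Ctsb and Ctss, which overlapped, Ctsa and Ctsl, which overlapped, and then Ctsw, Ctse and Ctsh, each apart from the next. Ctsd and Ctsw together made up 61.5% and 62.1% of the summed cathepsin FPKM in the CNS libraries and 18.8% and 14.2% in the dLN libraries. Ctsz held 36.5% and 42.4% in dLN and 3.20% and 5.89% in CNS. Ctse held 10.9% in CNS replicate 1 and 1.07% in CNS replicate 2.

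**Figure D3:**
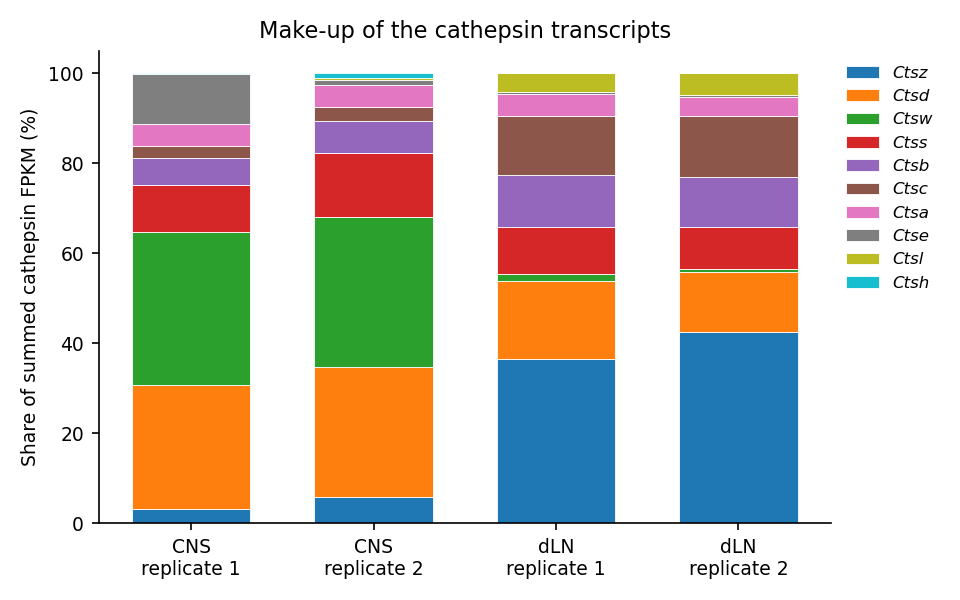
Share of each cathepsin gene in the summed cathepsin FPKM of a library (%), stacked, for CNS replicates 1 and 2 and dLN replicates 1 and 2. Ctsw and Ctsd fill 61.5% and 62.1% of the CNS bars, while Ctsz is the largest part of the dLN bars at 36.5% and 42.4%.

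Several cathepsins are abundant in myeloid cells, so their levels in the CNS libraries were set beside the markers of such cells. On the log2 scale of FPKM + 1, CNS replicate 2 was above replicate 1 for 16 of 17 macrophage and microglia markers, with a median difference of 1.14, and for 8 of 9 neutrophil markers, with a median of 2.29. The largest macrophage marker, Lyz2, had 3.22 FPKM in CNS replicate 1 and 92.1 FPKM in replicate 2, and the second, Apoe, 3.87 and 30.6 FPKM. The neutrophil genes S100a8 and S100a9 were at 101 and 96.0 FPKM in CNS replicate 2, and in replicate 1 S100a8 was listed at 0 and S100a9 was at 0.767 FPKM. Dendritic cell markers summed to 43.9 FPKM in CNS replicate 2 and 8.72 FPKM in replicate 1, and T cell markers had a median difference of 0.02. B cell markers summed to at most 2.37 FPKM in any library, and neural markers to 49.95 to 57.99 FPKM, nearly all of it Mbp, with the higher sums in dLN. Of the 3 neural markers tested, Mbp was lower in CNS (log2 ratio -0.28). Gfap and Snap25, named after their values were seen, ran toward CNS. Gfap had 0.655 and 2.51 FPKM in CNS and was listed at 0 in dLN. Snap25 had 0.316 and 1.80 FPKM in CNS against 0.00279 and 0.0246 FPKM in dLN. Of the cathepsins, 9 of 10 were higher in CNS replicate 2, where 54.3% of all genes tested were. Apart from Ctse, Ctsh (difference 2.66), Ctsl (1.45), Ctsz (0.92) and Ctss (0.50) had the largest differences, while Ctsw (0.02), Ctsa (0.03) and Ctsd (0.13) were nearly level. The part of other cells in the levels of Ctsh, Ctsl, Ctsz and Ctss in CNS replicate 2 was not tested. CNS replicate 1 had lower macrophage and neutrophil markers than replicate 2. Its macrophage and microglia sum of 27.9 FPKM was still above the 4.13 and 3.66 FPKM of dLN. In CNS replicate 1 alone, Ctsw was 124-fold, Ctsd 8.06-fold, Ctsa 4.90-fold, Ctss 4.84-fold and Ctsb 2.36-fold above the dLN mean. The part of other cells in these levels of CNS replicate 1 was not tested either. Ctsz and Ctsl lay further below dLN in that library, at 2.73-fold and 5.65-fold below the dLN mean.

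**Figure D4:**
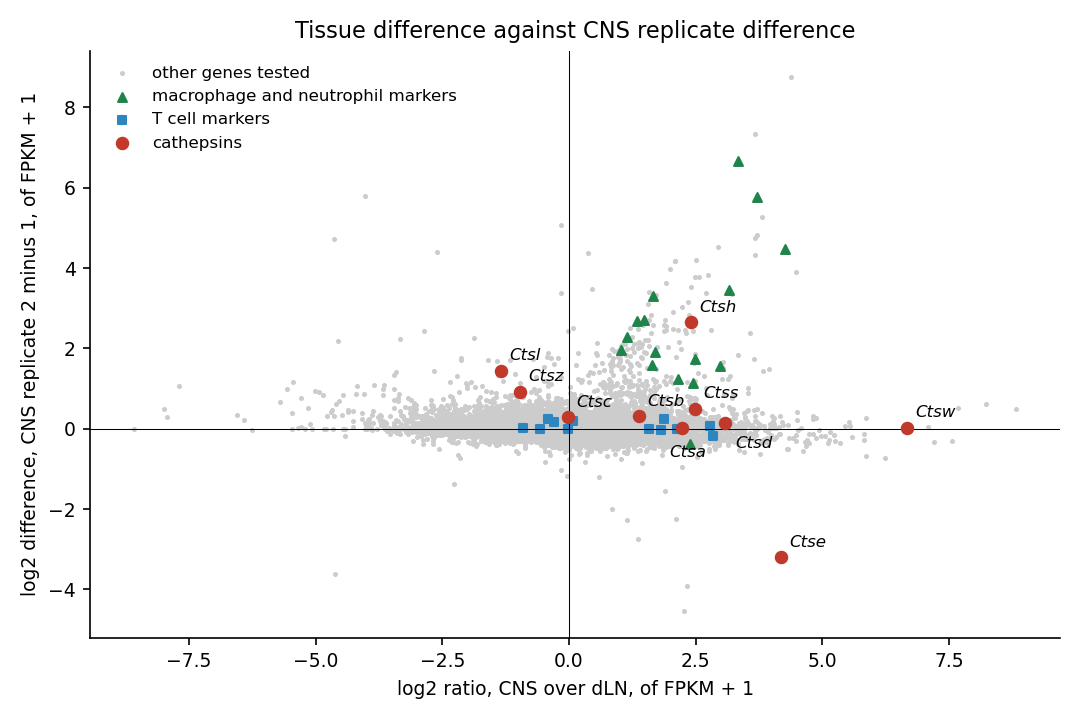
Log2 difference between CNS replicates 2 and 1 (vertical) against the log2 ratio of CNS over dLN (horizontal) for all genes tested, both on FPKM + 1, with cathepsins, macrophage and neutrophil markers and T cell markers marked. Ctsw, Ctsd and Ctsa lie near 0 on the vertical axis with the T cell markers, Ctsh lies among the myeloid markers at 2.66, and Ctse lies below at -3.19.

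Of 13 further cathepsin genes, Ctso alone was tested. Ctso, a widely expressed cysteine protease, was at 10.4 and 9.104 FPKM in CNS and 1.93 and 1.52 FPKM in dLN (log2 ratio 1.98, limma adjusted p = 0.000230). Ctsf, Ctsg, Ctsk and Cts8 had at most 0.207 FPKM in any library, and the other 8 were listed at 0 in all 4. Of 6 tested genes of cathepsin inhibitors, 4 were higher in CNS and 2 did not pass. Ctla2a and Ctla2b, whose proteins resemble the propeptide that blocks cathepsin L, rose from 17.6 FPKM in dLN to 329 FPKM in CNS (log2 ratio 4.16) and from 3.01 to 57.1 FPKM (3.91), although reads of these near-identical paralogs could have been divided between both. Cst3 (cystatin C) was at 118 and 289 FPKM in CNS and 48.9 and 41.9 FPKM in dLN (log2 ratio 2.01, limma adjusted p = 0.00998), and was also higher in CNS replicate 2. Cst7 (cystatin F), an inhibitor of cathepsin C found inside lysosomes, changed by 0.45 (limma adjusted p = 0.00703), a call lost when libraries were scaled to the same sum (0.26, adjusted p = 0.0672). Cstb had a log2 ratio of 0.18 and Stfa2l1 one of 0.98, the latter with 2.91 FPKM in CNS replicate 2 and 0 in the other 3 libraries. Neither passed, although Stfa2l1 did without CNS replicate 1 (adjusted p = 0.00500).

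The wider lysosomal genes were counted in 9 lists, which include the further cathepsins and the inhibitors but not the 10 cathepsins described first. Of 104 tested genes, 61 were higher in CNS, 19 lower and 24 did not pass, with a median log2 ratio of 0.65. These lists were written with earlier results of these data known, and the counts stand beside the 37.8% and 37.2% of all genes tested. Hydrolases of sugars and lipids were mostly higher (20 of 29, with 2 lower, median 1.37). Psap, the precursor of saposins, rose from 30.6 FPKM in dLN to 227 FPKM in CNS (log2 ratio 2.84), and Acp5, a lysosomal acid phosphatase, from 3.53 to 102 FPKM (4.52). Of 6 other lysosomal proteases, 5 were higher and 1 lower, with Tpp1 (tripeptidyl peptidase 1) at 0.87, Napsa at 3.18 and Scpep1 at -0.66. Membrane proteins gave 9 higher and 1 lower of 15 (median 0.91). Laptm5 reached 1010.2 FPKM in CNS against 111 FPKM in dLN (log2 ratio 3.19), and Npc2, a cholesterol carrier, 112 against 33.4 FPKM (1.71), whereas Lamp1, the usual marker of lysosomal membrane, had a log2 ratio of 0.07 (limma adjusted p = 0.568).

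Not every part of the lysosomal machinery moved toward CNS. Subunits of the vacuolar ATPase, which acidifies the lysosome, split into 8 higher, 5 lower and 3 not called of 16 (median 0.24), and into 4 higher and 6 lower when libraries were scaled to the same sum. Without dLN replicate 2, 5 were higher and 5 lower. Of its most abundant members, Atp6v1f had a log2 ratio of 0.17 without a call, which it gained at the same upper quartile (0.30, adjusted p = 0.0255) and without CNS replicate 1 (0.25, adjusted p = 0.0407). Atp6v0c, with 101 and 156 FPKM in CNS below 176 and 181 FPKM in dLN, missed the threshold at -0.50 (limma adjusted p = 0.0848) and passed as lower at the same sum (-0.70, adjusted p = 0.0206) and without CNS replicate 2 (-0.82, adjusted p = 0.00418). Atp6v0e was at 0.32 with a call (limma adjusted p = 0.0248) that was lost at the same sum (0.12, adjusted p = 0.229) and without any library but CNS replicate 1. Sorting genes gave 4 higher and 5 lower of 11 (median -0.16), and 2 higher and 5 lower without dLN replicate 1 or without dLN replicate 2. M6pr, the cation-dependent mannose 6-phosphate receptor that carries cathepsin precursors to endosomes, had 117.9 and 120.3 FPKM in CNS against 549.8 and 618.4 FPKM in dLN. Its log2 ratio of -2.28 (SE 0.09, limma adjusted p = 8.98e-05) ran opposite to those of Ctsd, Ctsb and Ctsa. It did not run opposite to those of Ctsz (-0.96) and Ctsl (-1.33, not past the threshold), and Ctsc was at -0.02. Igf2r, the other mannose 6-phosphate receptor, named after its values were seen, was higher (0.39, limma adjusted p = 0.0179). That call was lost at the same sum (0.21, adjusted p = 0.101) and without CNS replicate 2 (0.32). Gnptg, a subunit of the enzyme that attaches the mannose 6-phosphate signal, was higher (1.65). Gga1 was higher as well (0.49, limma adjusted p = 0.0131), a call lost without dLN replicate 1 or dLN replicate 2. Named after their values were seen, Gnptab of the same enzyme (-0.58) and the Gga1 relatives Gga2 (-1.68) and Gga3 (-1.21) were lower.

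Genes of TFEB, the transcription factor of lysosomal genes, and of its lysosomal regulators gave 4 higher and 5 lower of 12 (median -0.03, and 0.10 at the same upper quartile). Lamtor2 (log2 ratio 1.81) and Lamtor5 (0.69) of the Ragulator complex were higher, and Lamtor1 did not pass (0.23, limma adjusted p = 0.0787), except at the same upper quartile (0.36, adjusted p = 0.0152) and without CNS replicate 1 (0.31, adjusted p = 0.0339). The 5 lower genes were Flcn (-1.20), Fnip1 (-0.80), Rraga (-1.06), Rragd (-2.35) and Lamtor3 (-0.72). Tfeb itself was at 9.76 and 12.8 FPKM in CNS and 1.41 and 1.03 FPKM in dLN (log2 ratio 2.46, limma adjusted p = 0.000259). Its relative Tfe3 was at 11.9 and 15.1 FPKM in CNS and 13.5 and 14.2 FPKM in dLN (-0.04, limma adjusted p = 0.797). The lower genes, Tfeb and Tfe3 were named after their values had been seen. Among 8 genes whose proteins cathepsins process or act with, 6 were higher in CNS. Gzma, a granzyme activated by cathepsin C, had a log2 ratio of 5.85 and Gzmb one of 1.02 (limma adjusted p = 0.00776), the latter past the threshold neither without CNS replicate 1 (adjusted p = 0.0893) nor without CNS replicate 2 (adjusted p = 0.0507). Their activator Ctsc had a ratio of -0.02 in the same libraries. Cd74, the invariant chain cut by cathepsin S, was at 22.4 and 259 FPKM in CNS and 58.4 and 54.1 FPKM in dLN and did not pass (log2 ratio 0.45, limma adjusted p = 0.731). It was above dLN in CNS replicate 2 and below dLN in CNS replicate 1, while Ctss was above dLN in both.

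**Figure D5:**
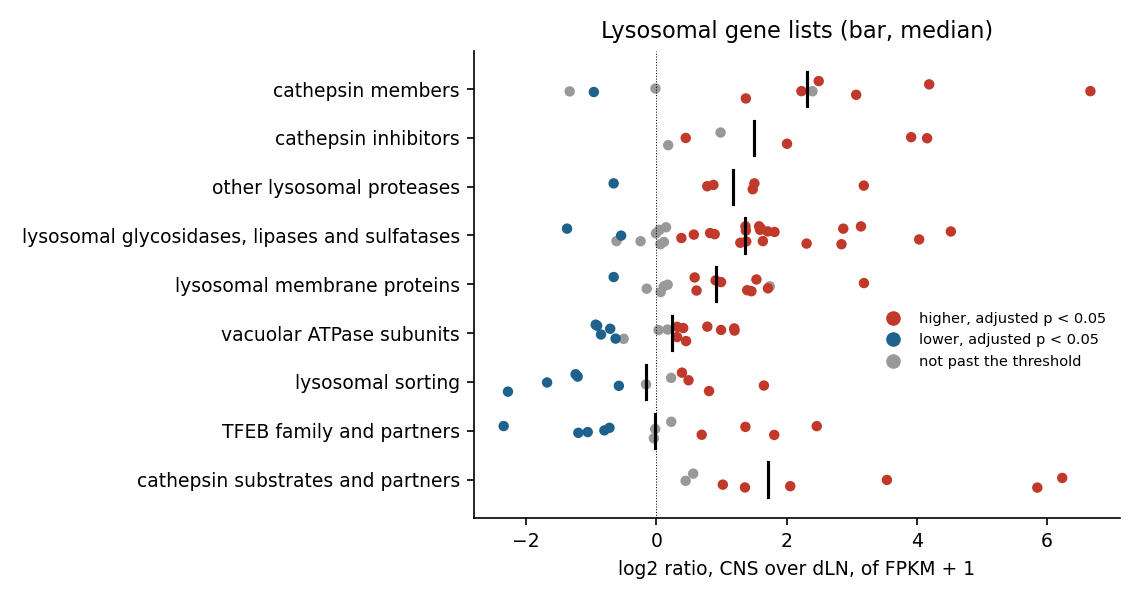
Log2 ratio of CNS over dLN on FPKM + 1 for the tested genes of the cathepsins and 8 lysosomal gene lists, 1 point per gene, coloured by the limma call, with a bar at each median. The medians are 2.31 for the cathepsins and 1.37 for hydrolases of sugars and lipids, against -0.16 for sorting genes and -0.03 for TFEB and its partners.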

How the data were processed

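RNA of effector CD4 cells from CNS and dLN was sequenced by the authors from TruSeq libraries, 2 per tissue. After read trimming and mapping, the authors deposited 1 table for CNS and 1 for dLN, with FPKM of 33819 RefSeq transcripts (mouse build mm10). The aligner and the FPKM program are not given in the sources used here. The CNS table names both libraries in a single header cell, and its columns were assigned in that order. Tables were joined by transcript, and 565 transcripts without a symbol were left out. A gene was tested where its mean reached 1 FPKM in CNS or dLN. CNS was compared with dLN by limma 3.58.1 in R 4.3.3 (eBayes with trend, no covariate) on log2(FPKM + 1), at a Benjamini-Hochberg adjusted p of 0.05. This scale understates changes of low genes. Depth came from low FPKM values, of which 90.8% to 93.3% fell within 0.05 of a whole fragment (10% by chance). On simulated data of 10634 genes, limma recovered 61 of 100 genes changed by 1 and 86 of 100 changed by 2 on the log2 scale. There were 9 calls on unchanged genes. Only 200 genes were changed there, far fewer than were called in the data, and spreads were shuffled among genes. These rates therefore do not give the recovery in the real comparison. Strand and overlaps came from GENCODE M21. Members and lists were chosen with earlier results of these data known. Named are the cathepsins, tested inhibitors and other cathepsins, the 3 most abundant tested genes of each other lysosomal list, the 3 nearest patterns and the most abundant markers. Exceptions are stated, and 1 gene that this rule names is not reported here. Python 3.11.15 (numpy 2.4.6, pandas 2.3.3, scipy 1.17.1, matplotlib 3.10.9) was used for the rest.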

Additional observations from a re-analysis of the deposited data

How the results depend on the processing

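Over 14 alternative settings, 117 of 140 values of the cathepsin genes kept both sign and call, 7 lost and 13 gained a call, and 3 turned in sign, all of Ctsc: to 0.12 at the same upper quartile, and to 0.13 and 0.02 without CNS replicate 1 and dLN replicate 1 (range -0.16 to 0.13 with a library left out, and -0.21 to 0.13 over all settings), with no call. Calls of Ctsa, Ctsb, Ctsd, Ctss and Ctsw were kept in all of them. With no FPKM minimum these 5 were the only cathepsins called. The 7 cathepsins called became 5 to 9 with a library left out. Requiring a log2 ratio of at least 1, which is a second criterion, left 4168 of 7968 genes and 48 of 80 other lysosomal genes called. With a library left out the counts were 6676 to 7429 and 72 to 82. The summed cathepsin FPKM moved to 1169 in CNS and 291 in dLN at the same sum, and to 1310.4 in CNS at the same upper quartile, by construction of the scaling. These scalings shifted the median log2 ratio of all genes by -0.18 and 0.12.

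CNS and dLN libraries share the replicate numbers 1 and 2, but no pairing is described, and across genes the difference between CNS replicates correlated with that between dLN replicates at only 0.0933. A fit with the replicate block called 7828 genes, 79 other lysosomal genes and 9 cathepsins, with Ctsh (2.40, adjusted p = 0.0367) and Ctsl (-1.33, adjusted p = 0.0287) added. With 2 libraries per tissue and about 1 fragment of Ctsh per dLN library, precision is limited.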
